A study of Drosophila melanogaster with 18 samples.

Results

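White prepupae of Drosophila melanogaster that were trans-heterozygous for alleles of Nxt1 were compared with w1118 white prepupae by RNA sequencing of whole animals. The values were taken from the authors' deposited table of prepupal genes, restricted to entries whose status was OK, which left 10780 tested genes of 14542 entries. A further 3714 entries were left untested by the authors and 48 failed. The isoform table gave 12142 tested isoforms of 32574 and 11101 of 19024 start-site groups were tested.

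The study holds 18 samples in 6 groups of 3, which are w1118 and the trans-heterozygotes as wandering larvae, as stationary larvae and as white prepupae. The mutant animals carried the allele DG05102 over the allele Z2-0488, and their strain label is yw, so genotype and strain background cannot be told apart. Larvae were kept on cornmeal and yeast food and staged on food with 0.05% bromophenol blue, which colours the gut. White prepupae were animals within the first hour of puparium formation, when the case is still white. The labels do not say what separated the 3 replicates of a group.

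Each value is an FPKM, a fragment count divided by transcript length and by library size, and the authors pooled the 3 samples of a genotype into 1 value. The replicate spread is therefore seen only through their Cuffdiff test, and the depth of each sample is unknown. A gene was called, and is said to have risen or fallen, when its q in the authors' deposited table was at most 0.05. All q-values below are from that deposited table, and one printed as 0 is printed as deposited. Differences are given as log2((FPKM + 1) in the trans-heterozygotes over (FPKM + 1) in w1118), which understates the change of low genes, or as log2 fold change without the added 1, with the standard error implied by the deposited statistic.

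NXF1, the product of the fly gene sbr, binds Nxt1, and as a heterodimer they carry most messenger RNA out of the nucleus through the nuclear pore. White prepupae have just passed the late larval pulse of the steroid hormone ecdysone. At that time the salivary glands have released their glue, larval tissues begin to be broken down, and a new set of ecdysone-induced genes is switched on.

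The stage label was checked on its markers in w1118. The glue gene Sgs3 stood at 49.5 FPKM, against 4905 in stationary and 17948 in wandering larvae, and the ecdysone-induced gene Eig71Eb stood at 4853 FPKM, against 723 and 22.4. The 3 stages were scaled separately by the authors, so levels set side by side across stages are approximate. The targeted gene was listed at 10.6 FPKM in w1118 and 17.9 in the trans-heterozygotes (deposited q = 0.48), so its level does not mark the mutant libraries. The yellow gene y was listed at 0.184 FPKM in w1118 and 1.73 in the trans-heterozygotes, a difference that was not called (deposited q = 0.684, log2 fold change 3.23 ± 3.61).

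More genes were lower than higher in the mutant prepupae. Of the tested genes 1388, or 12.9%, were called lower and 434, or 4.03%, were called higher. The falls were also larger. At least 4-fold lower were 796 genes and at least 10-fold lower 500, and 81 of the genes called lower were listed at 0 in the trans-heterozygotes. At least 4-fold higher were 37 genes and at least 10-fold higher 13. The median log2 ratio over all tested genes was -0.05, with quartiles at -0.42 and 0.21, and 45.1% of tested genes lay above 0. Genes known only by a CG or CR number made up 67.9% of the lower calls, 43.1% of the higher calls and 49.1% of the uncalled genes. The share called higher was largest among abundant transcripts, at 25.3% of the 83 genes with a mean of at least 1000 FPKM. It was 0.809% of the 2597 genes between 1 and 5 FPKM. The corresponding shares called lower were 14.5% and 13.8%, and the median log2 ratios were 0.08 and -0.18. Of the 434 higher calls 264 were under 2-fold. The part that the test's power to call small changes at high levels plays in these shares was not tested.

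**Figure D1:**
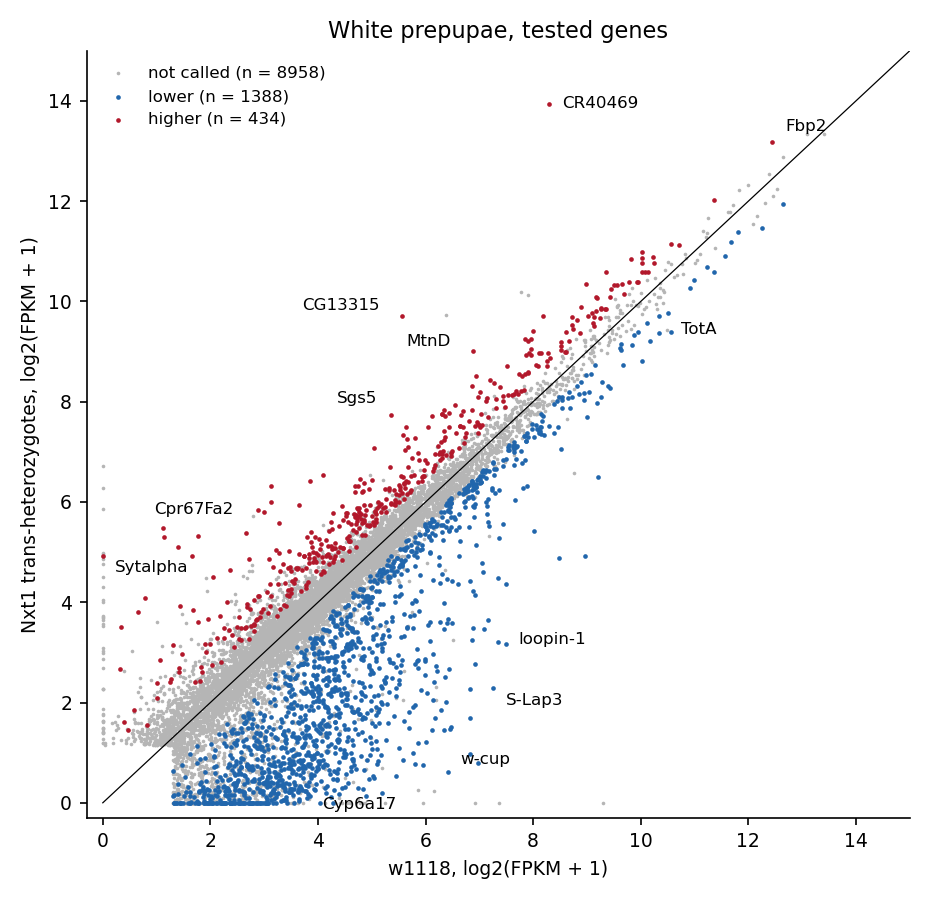
Each point is 1 of the 10780 tested genes, with log2(FPKM + 1) in w1118 prepupae on the x axis and in Nxt1 trans-heterozygotes on the y axis, and the line marks equal values. The 1388 genes called lower fill the area far below the line, and most of the 434 genes called higher lie close above it, with CR40469 standing alone at the top.

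Among the gene lists, the deepest falls were in genes of sperm formation. Of 53 entries for genes of spermatids and sperm, 50 were tested, 37 fell, none was called higher, and 13 were not called. The share called lower was 74%, against 12.9% over all genes. Their median log2 ratio was -2.92, against -0.05 over all tested genes, and 1 of the 50 lay above 0. w-cup, a gene transcribed in elongating spermatids, was listed at 83.9 FPKM in w1118 and 0.533 in the trans-heterozygotes, a log2 fold change of -7.30 ± 0.80. The testis calmodulin Acam stood at 60.5 FPKM in w1118 and 0.676 in the trans-heterozygotes, 89.6-fold lower (deposited q = 6.86e-05). Sperm chromatin was represented by the transition protein gene Tpl94D (35.5 against 0.141 FPKM, deposited q = 5.99e-06), by the linker gene Mst77F (73 against 5.22 FPKM) and by the protamine genes Mst35Ba (13.7 against 4.23 FPKM) and Mst35Bb (20.5 against 3.45 FPKM), and all 4 fell.

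The sperm leucyl aminopeptidases, abundant proteins of the sperm mitochondrial derivative, fell together. S-Lap3 was at 152 FPKM in w1118 and 3.86 in the trans-heterozygotes, S-Lap1 at 135 against 10 FPKM and S-Lap7 at 68.4 against 1.73 FPKM. loopin-1, which encodes a sperm mitochondrial protein of the same family, went from 179 to 7.94 FPKM. The sperm tail gene dj was at 88.2 against 1.87 FPKM, 47.3-fold lower. The falls differed in depth among these genes, since ocn was at 200.4 against 64.4 FPKM and the testis beta tubulin entry, merged with Task7, at 80 against 14.8 FPKM. Both were called lower at under 6-fold.

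A few spermatid genes with very low mutant values were not called. t-cup was at 20.7 against 0 FPKM, deposited q = 0.472, and the mitofusin gene fzo was at 19.8 against 1.33 FPKM, deposited q = 0.0778. The uncalled alphaTub84D, at 42.5 against 44.4 FPKM, deposited q = 0.907, was the member above 0, and oys was at 85 against 82.2 FPKM, deposited q = 0.918. In whole animals, fewer germ cells and less RNA per germ cell cannot be told apart.

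Genes that act earlier in the male germ line did not follow the same course. The meiotic arrest genes, whose products switch on the spermatocyte programme, had a median log2 ratio of -0.00 over 11 tested genes and no call in either direction. That median was 0.05 when ratios were shifted to a median of 0 over all genes. mip40 was at 17.8 against 14.5 FPKM, deposited q = 0.622 and achi at 10.7 against 15 FPKM, deposited q = 0.292. Of 9 tested genes of early germ cells and meiotic entry, 2 rose, 2 fell and the median was 0.42. Each direction held 22.2% of them, against 4.03% called higher and 12.9% called lower over all genes. The spermatocyte RNA-binding gene Rbp4 rose from 5.39 to 14.6 FPKM (deposited q = 0.000102) and the piRNA Argonaute gene aub from 1.01 to 3.27. The meiotic translation regulator bol fell from 64.9 to 10.7 FPKM, 6.05-fold, and its target, the Cdc25 phosphatase gene twe, from 14.4 to 3.9. Of 3 tested Y-linked genes ARY fell (4.06 against 0.703 FPKM, deposited q = 0.0247), and Pp1-Y1 (2.05 against 0 FPKM, deposited q = 0.169) and Pp1-Y2 (1.66 against 0.0499 FPKM, deposited q = 0.213) were not called. The roX RNAs, which coat the single male X chromosome, were at 208 against 255 FPKM, deposited q = 0.217, for roX1 and at 44 against 20.7 FPKM, deposited q = 0.108, for roX2.

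In several housekeeping families the deepest falls were in variant members, a grouping made after their values were seen. Of 42 tested proteasome entries 10 fell and 2 rose, and the median was -0.16. That made 23.8% lower and 4.76% higher, against 12.9% and 4.03% over all genes. Of the 10, 8 were variant subunits such as Prosbeta5R (11 against 0.932 FPKM, deposited q = 0.000412), Prosalpha3T (5.91 against 0.167 FPKM, deposited q = 0.000136) and Pros28.1B (10.6 against 0.902 FPKM, deposited q = 4.83e-06), while the variant Rpt4R rose (6.18 against 11.6 FPKM, deposited q = 0.041) and the general subunit genes Rpt4 (232 against 149 FPKM) and Rpn5 (354 against 271 FPKM) fell by less. Of 18 tested chaperone entries 6 fell and 1 rose, among them the chaperonin genes Hsp60B (17.5 against 0.577 FPKM, deposited q = 4.27e-14) and Hsp60C (81.5 against 4.71 FPKM) and the Hsp70 cognates Hsc70-1, Hsc70-2 (30.4 against 4.95 FPKM) and Hsc70-5. Among chaperones 33.3% were called lower and 5.56% higher, the latter near the share over all genes. The main cytosolic cognate Hsc70-4 was at 1097 against 954 FPKM, deposited q = 0.508. Single members of other families followed, namely the ribosomal gene RpL10Aa (15.2 against 0.704 FPKM, deposited q = 1.52e-05), the phosphoglycerate mutase gene Pglym87 (14.1 against 0.211 FPKM, deposited q = 2.5e-05), the cytochrome c gene Cyt-c-d (24.1 against 6.65 FPKM, deposited q = 0.00094) and the autophagy gene Atg8b (17.7 against 0.488 FPKM, deposited q = 0.000584). The ubiquitous relative Atg8a rose modestly (555 against 762 FPKM, deposited q = 0.00759).

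Antibacterial peptide genes were mostly higher in the mutant prepupae. Most of these genes encode secreted peptides of the fat body that the Imd and Toll pathways induce. Of 14 tested genes 9 rose, 1 fell and 4 were not called, with a median log2 ratio of 1.24. That made 64.3% higher and 7.14% lower, against 4.03% and 12.9% over all genes. AttD rose from 8.64 to 46.8 FPKM, a log2 fold change of 2.44 ± 0.38. The diptericin genes Dpt (122 against 365 FPKM, deposited q = 7.15e-12) and DptB (80.4 against 227 FPKM, deposited q = 4.28e-07) rose 3-fold and 2.82-fold, and the cecropin genes CecA1 (81.4 against 208 FPKM), CecB (81.3 against 156 FPKM) and CecC (30.9 against 85.9 FPKM) rose as well. Mtk (147 against 160.0 FPKM, deposited q = 0.94) and AttC (75.2 against 77.2 FPKM, deposited q = 0.964) were not called.

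The attacin genes AttA and AttB went in opposite directions. AttA fell from 236 to 79.3 FPKM (deposited q = 4.2e-13) and AttB rose from 77.7 to 215 (deposited q = 4.22e-12). They are near-identical neighbours whose reads cannot be assigned with certainty, and their summed FPKM was 314 in w1118 and 295 in the trans-heterozygotes. For AttA and AttB singly the direction is therefore uncertain.

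Of 15 tested entries for peptides of the Toll branch 7 rose and 1 fell, with a median of 0.79. That made 46.7% higher and 6.67% lower, against 4.03% and 12.9% over all genes. At a q of at most 0.01 the rises were 3 and the falls 0. Of the 7 rises, 3 are entries that all carry the names CG33470 and IM10. The secreted peptide gene IM3 rose from 288 to 839 FPKM and its neighbour IM1 fell from 163 to 74.4. The antifungal peptide gene Drs was at 364 against 587 FPKM, deposited q = 0.00458, and Drsl2 at 234 against 489 FPKM, deposited q = 0.000259. Drsl6 rose from 2.16 to 29.5 FPKM, 13.6-fold from a low base. Drsl5, the most abundant of the family, stood at 3229 against 3511 FPKM, deposited q = 0.698. Of 28 tested recognition and signalling genes 2 rose and 1 fell, shares of 7.14% and 3.57%, against 4.03% and 12.9% over all genes. The rises were the amidase gene PGRP-SC1b (3.54 against 12.1 FPKM) and the Imd inhibitor gene pirk (12.3 against 29.4 FPKM, deposited q = 1.1e-05). The fall was the glucan-binding gene GNBP3 (172 against 104 FPKM, deposited q = 3.86e-05).

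Stress-responsive genes rose in part. Among the Turandot peptides and the JAK-STAT genes that control them, TotB rose from 7.75 to 78.8 FPKM and TotA, the most abundant member, fell from 1461 to 873 (deposited q = 9.75e-06). The transcription factor gene Stat92E (104 against 144 FPKM, deposited q = 0.0242) and the pathway's feedback inhibitor gene Socs36E (17.4 against 26 FPKM, deposited q = 0.0133) rose by less than 1.5-fold. Over the 11 tested members of that list 3 rose, 1 of them at a q of at most 0.01, and 1 fell, with a median of 0.27. That made 27.3% higher and 9.09% lower, against 4.03% and 12.9% over all genes.

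All 7 tested Hsp70 entries were called higher, against 4.03% of all tested genes, with log2 ratios between 0.78 and 1.38. The stress-induced Hsp70Aa was at 27.3 FPKM in w1118 and 72.6 in the trans-heterozygotes, a log2 fold change of 1.41 ± 0.18, and Hsp68 at 80.6 against 149 FPKM, deposited q = 7.4e-08. The 6 Hsp70 entries are near-identical copies that share reads and are not separate observations. Of 7 tested small heat shock genes 3, or 42.9%, rose, against 4.03% over all genes. Of these rises 1 had a q of at most 0.01, none of the 7 fell, and the median was 0.40. l(2)efl rose most, from 48.7 to 179.8 FPKM, and Hsp26 was at 387 against 511 FPKM, deposited q = 0.0327. Hsp23 (3653 against 4809 FPKM, deposited q = 0.0689) and Hsp27 (1834 against 1866 FPKM, deposited q = 0.964), which ecdysone also induces, were not called. Hsp83 (546 against 523 FPKM, deposited q = 0.886) was not called either, and the starvin gene stv, a partner of Hsc70, rose (33.3 against 57.7 FPKM, deposited q = 0.0003).

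**Figure D2:**
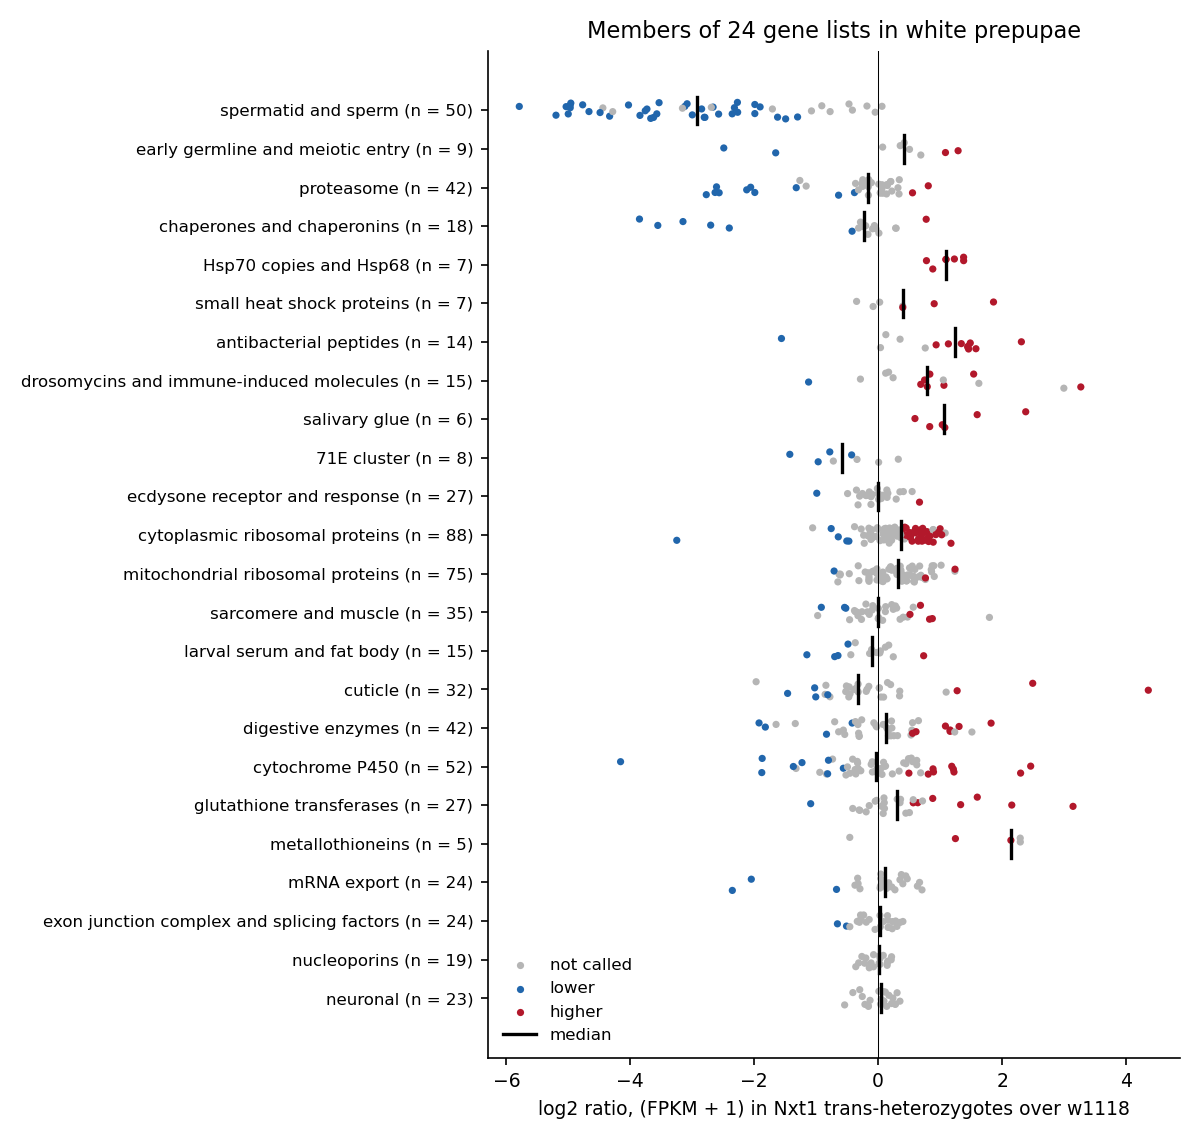
Each point is 1 tested member of a gene list, with its log2 ratio of (FPKM + 1) in trans-heterozygotes over w1118 on the x axis, coloured by its call, and the black bar is the list's median. The spermatid list spreads to the left with a median of -2.92, the Hsp70 and glue lists lie wholly to the right of 0, and the nucleoporin list keeps near 0 with no call.

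Glue transcripts were higher and the 71E cluster lower. The salivary glands make glue proteins until the animal sticks itself down, and all 6 tested glue entries of 12, which are Sgs1, Sgs3, Sgs5, Sgs7, Sgs8 and the glue-type gene Eig71Ee, were called higher, with a median log2 ratio of 1.06. Over all tested genes 4.03% were called higher. The other 6 entries, Sgs4 among them, failed in the authors' fit. Sgs5 stood at 39.7 FPKM in w1118 and 211 in the trans-heterozygotes, 5.31-fold higher, and Sgs3 at 49.5 against 152 FPKM. Sgs7 was the most abundant at 1508 against 2276 FPKM, deposited q = 0.00493. Sgs3 was at 4905 against 8545 FPKM, w1118 first, in stationary larvae and at 17948 against 17643 in wandering larvae, where its deposited q was 1.

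The 71E genes are switched on late in the ecdysone response and encode small secreted peptides of the prepupal salivary gland. Of 8 tested entries 4, or 50%, fell, against 12.9% over all genes, and 2 of these falls had a q of at most 0.01. None rose, and the median log2 ratio was -0.58. Eig71Eb was at 4853 against 2825 FPKM, deposited q = 1.3e-06, Eig71Eg at 1295 against 662 FPKM, deposited q = 1.07e-07, and Eig71Ed at 3574 against 2657 FPKM, deposited q = 0.0171. Eig71Ea (4076 against 5106 FPKM, deposited q = 0.0902) and Eig71Ec (547 against 549.7 FPKM, deposited q = 0.988) were not called. In stationary larvae Eig71Eb was at 723 against 236 FPKM, w1118 first. From wandering larvae to prepupae Sgs3 and Sgs5 levels went down in w1118 and Eig71Eb, Eig71Ed and Eig71Eg levels went up, and in mutant prepupae these 5, picked after their values were seen, lay on the side of the younger stage. Other genes with a strong course did not. Eig71Ea, which went up in w1118 from 33.7 FPKM in wandering larvae to 4076, was at 5106 in mutant prepupae, and Lsp1alpha, which went down from 5813 to 686, was at 309, both on the side of the older stage. The part that a difference in developmental time plays in these calls was not tested.

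The hormone pathway itself showed few calls. Of 27 tested genes of the ecdysone receptor and its response 1 rose, the nuclear receptor gene Eip78C (36.2 against 58 FPKM, deposited q = 0.000138), and 1 fell, an entry that merges Eip63F-1 with mge (149 against 74.6 FPKM, deposited q = 0.000436). Their median was 0.00. Each direction held 3.70% of them, against 4.03% called higher and 12.9% called lower over all genes. The Broad transcription factor gene br was at 285 against 289 FPKM, deposited q = 0.973, and the effector gene ImpE2 at 745 against 650.1 FPKM, deposited q = 0.448. Of 11 tested genes of ecdysone synthesis 1 fell, the enzyme gene spok (15.6 against 8.45 FPKM, deposited q = 0.00761), a share of 9.09%, below that over all genes.

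**Figure D3:**
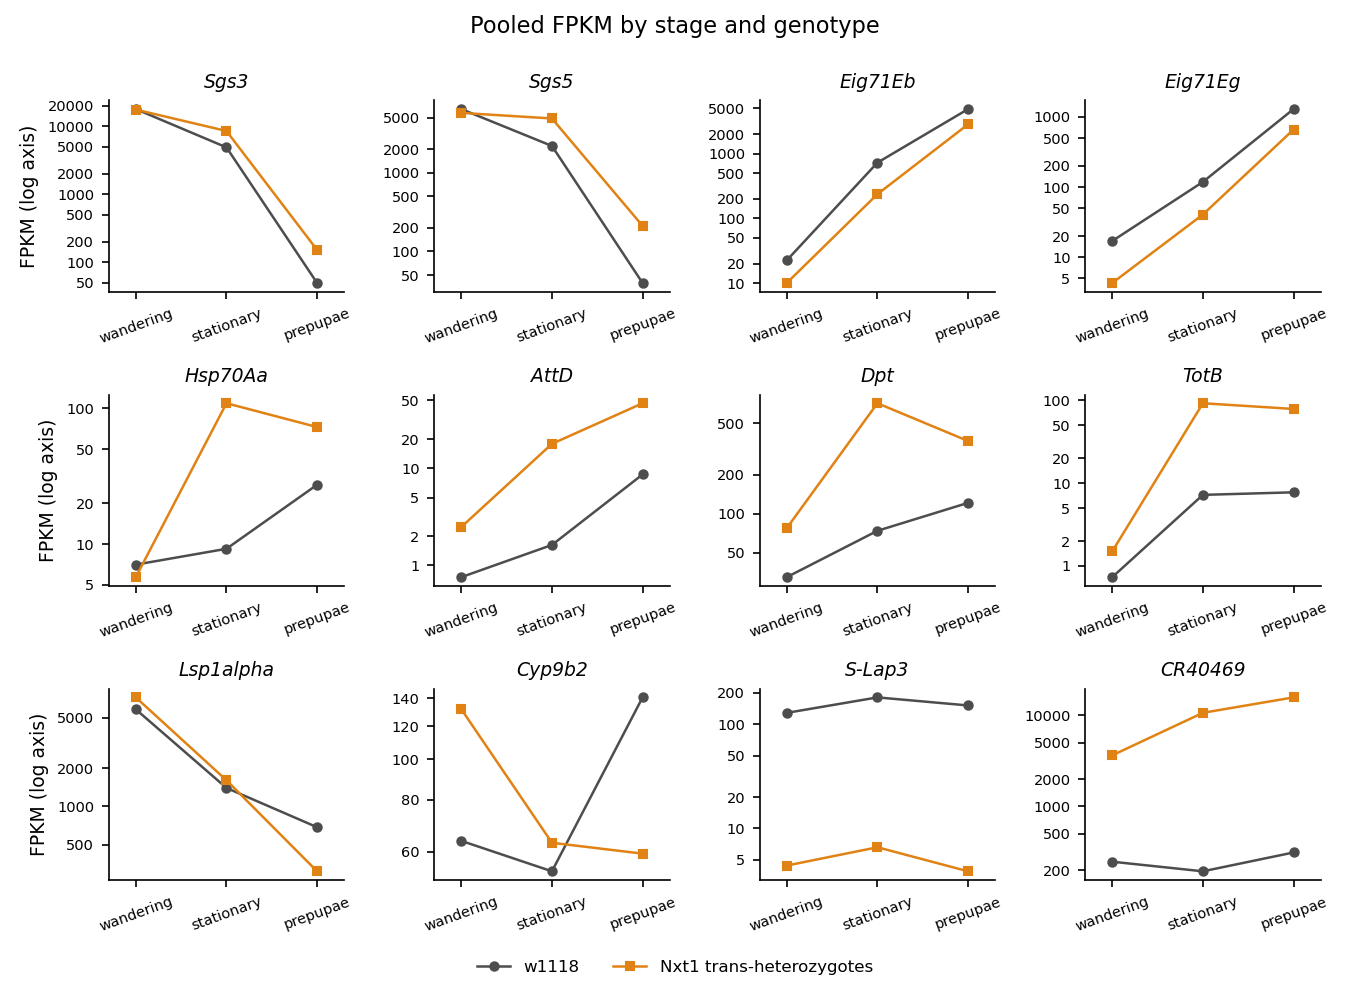
The panels plot the pooled FPKM of 12 genes, on log axes, in wandering larvae, stationary larvae and white prepupae for w1118 and the Nxt1 trans-heterozygotes; stages were scaled separately and no error is available. The mutant line lies above w1118 at the prepupal stage for the glue genes Sgs3 and Sgs5 and below it for Eig71Eb and Eig71Eg, while S-Lap3 is far below and CR40469 far above at every stage.

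Fat body genes were split. The larval serum proteins are stores that the fat body secretes before metamorphosis. Lsp1alpha fell from 686 to 309 FPKM (deposited q = 6.61e-11), whereas Lsp2 (5319 against 5986 FPKM, deposited q = 0.794) and Lsp1gamma (1259 against 927 FPKM, deposited q = 0.071) were not called. The storage protein receptor Fbp1 was at 8727 against 10335 FPKM, deposited q = 0.872, and Fbp2, an abundant fat body gene, rose (5586 against 9292 FPKM, deposited q = 0.000697). The gluconeogenic enzyme gene Pepck (460.1 against 283 FPKM, deposited q = 2.72e-05), the lipase gene bmm (76.7 against 54.5 FPKM, deposited q = 0.0194) and an entry that merges desat1 with CG5538 (157 against 99.8 FPKM, deposited q = 0.00324) fell. Over the 15 tested genes 1 rose and 4 fell, with a median of -0.11. The shares were 6.67% higher and 26.7% lower, against 4.03% and 12.9% over all genes.

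Cytoplasmic ribosomal protein transcripts were higher as a group but not throughout. Of 88 tested entries 38 rose, 5 fell and 45 were not called, and 68 lay above 0, with a median log2 ratio of 0.36. That made 43.2% higher and 5.68% lower, against 4.03% and 12.9% over all genes. Among all tested genes with a mean of 100 to 1000 FPKM 15.2% were called higher, and 25.3% among those of at least 1000. The part that transcript level plays in the ribosomal share was not tested. RpL29 was at 128 against 291 FPKM, deposited q = 0.000722, RpL15 at 898 against 1828 FPKM, deposited q = 5.49e-10, and RpL36A at 476 against 952 FPKM, deposited q = 1.04e-08. RpS27 (2616 against 1547 FPKM, deposited q = 4.63e-06), RpL13 (1926 against 1232 FPKM, deposited q = 0.000229), RpS20 (3289.7 against 2316 FPKM, deposited q = 0.00479) and RpL17 (789 against 568 FPKM, deposited q = 0.0133) fell, and RpL41, the most abundant, was at 6372 against 7489.8 FPKM, deposited q = 0.388. The mitochondrial ribosomal proteins had a similar median of 0.32 over 75 tested entries, but only mRpL30 (15.3 against 37.4 FPKM, deposited q = 0.00626) and mRpS9 (16.8 against 29.2 FPKM, deposited q = 0.0319) were called higher and mRpL19 (33.2 against 19.9 FPKM, deposited q = 0.0321) lower. At 2.67% higher and 1.33% lower, both shares were below those over all genes.

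Of 35 tested entries of sarcomere and muscle 4 rose and 3 fell, with a median of 0.00. The share called lower, 8.57%, was below the 12.9% over all genes, and the share called higher, 11.4%, rested on 4 genes, of which 2 had a q of at most 0.01. The tropomyosin gene Tm2 (17.9 against 33.7 FPKM, deposited q = 0.0122), the paramyosin gene Prm (15.8 against 28.9 FPKM, deposited q = 0.000491), the myosin light chain gene Mlc2 (4.94 against 8.54 FPKM, deposited q = 0.0211) and the arginine kinase gene Argk (199 against 284 FPKM, deposited q = 0.00805) rose. The actin-capping gene tmod (495 against 262 FPKM, deposited q = 6.84e-05), the Z-disc gene Zasp66 (1108 against 760.2 FPKM, deposited q = 0.00857) and the filamin gene cher (104 against 71.9 FPKM, deposited q = 0.0214) fell. abba, also called thin, encodes the muscle TRIM protein that holds larval sarcomeres together, and it was at 59.1 FPKM in w1118 and 45.5 in the trans-heterozygotes (deposited q = 0.138, not called). In stationary larvae abba had been at 54.1 against 32.2 FPKM and in wandering larvae at 48.1 against 23.5 FPKM, called lower at both stages. Its log2 fold change in prepupae was -0.38 ± 0.17, and the missing call does not show that the effect differed from that in larvae. Of 27 tested genes of muscle attachment 2 fell, the laminin gene LanA (91.7 against 50.8 FPKM, deposited q = 1.49e-07) and an entry that merges the integrin gene mew with CG15742 (44.9 against 19 FPKM, deposited q = 4.87e-06), a share of 7.41%, also below that over all genes.

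Of 42 tested digestive enzyme genes 7 rose and 4 fell, with a median of 0.12. The shares were 16.7% higher and 9.52% lower, against 4.03% and 12.9% over all genes, and 2 of the 4 falls had a q of at most 0.01. The serine proteases Jon25Bi (8.36 against 32.1 FPKM, deposited q = 3.58e-07) and Jon74E (11.6 against 30.1 FPKM, deposited q = 6.4e-06) rose, and etaTry (15.1 against 3.56 FPKM, deposited q = 0.000291) and the glucosidase gene tobi (8.32 against 1.46 FPKM, deposited q = 0.000816) fell. Of 52 tested cytochrome P450 genes 9, or 17.3%, rose and 8, or 15.4%, fell, the latter near the share over all genes, with a median of -0.03 that became 0.02 when ratios were shifted to a median of 0. Cyp28d1 rose from 3.12 to 21.7 FPKM and Cyp9b2 fell from 141 to 59.4. Cyp6a17 fell from 20.9 to 0.23 and its close neighbour Cyp6a23 rose from 11.5 to 60.3, with a summed FPKM of 32.4 in w1118 and 60.6 in the trans-heterozygotes. Whether reads were assigned correctly between these 2 genes was not tested. Both had moved the same way in the larvae, with Cyp6a17 at 14.4 against 0.163 FPKM in stationary larvae.

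Conjugating and metal-binding genes leaned upward. Of 27 tested glutathione transferase genes 7 rose and 1 fell, with a median of 0.31. The shares were 25.9% higher and 3.70% lower, against 4.03% and 12.9% over all genes. GstO3 was at 68.6 against 210.0 FPKM, deposited q = 0, and GstD4 at 5.57 against 28.3 FPKM, deposited q = 2.12e-06, while GstD3 fell (79.4 against 36.8 FPKM, deposited q = 5.94e-05). Of 5 metallothionein genes, which encode proteins that bind copper, zinc and cadmium, MtnA (649.8 against 1543 FPKM, deposited q = 6.51e-10) and MtnD (117 against 518 FPKM, deposited q = 5.45e-08) rose, and MtnB was at 226 against 165 FPKM, deposited q = 0.343. The 2 rises are 40% of these genes, against 4.03% over all genes. Of 17 tested genes of the unfolded protein and stress response 3 rose and 2 fell, with a median of 0.14. The shares were 17.6% higher and 11.8% lower, and 1 of the rises had a q of at most 0.01. The antioxidant enzyme genes Sod (78.4 against 117 FPKM, deposited q = 0.0365), Sod2 (34 against 59.9 FPKM, deposited q = 0.00256) and Cat (217 against 296 FPKM, deposited q = 0.0107) rose. The unfolded-protein regulator Xbp1 (259 against 156 FPKM, deposited q = 1.91e-05) and prtp (deposited q = 0.00175) fell.

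Cuticle and chitin genes gave small counts, with shares called lower, 12.5% and 12%, near the 12.9% over all genes. The shares called higher were 9.38% for cuticle and 4% for chitin genes, against 4.03% over all genes. Of 119 cuticle protein entries 32 were tested, 3 rose and 4 fell, with a median of -0.32. Cpr67Fa2 rose from 1.17 to 43.5 FPKM, a log2 ratio of 4.36. Cpr12A fell from 366 to 132, and Cpr78E from 412 to 234. Of 25 tested chitin-related genes the growth factor gene Idgf4 (618 against 337 FPKM, deposited q = 4.67e-08), Gasp (200.2 against 145 FPKM, deposited q = 0.0178) and the chitinase gene Cht12 (16.1 against 5.18 FPKM, deposited q = 1.04e-05) fell, and Idgf5 (2.75 against 7.97 FPKM, deposited q = 0.0022) rose.

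Blood cell genes showed 3 rises, 1 of them at a q of at most 0.01, and 1 fall among 19 tested entries, with a median of 0.04. The shares were 15.8% higher and 5.26% lower, against 4.03% and 12.9% over all genes. The prophenoloxidase gene proPO45 (0.391 against 1.75 FPKM, deposited q = 0.0396), the melanisation protease gene Sp7 (29 against 45.6 FPKM, deposited q = 0.00682) and the peroxidasin gene Pxn (9.35 against 14.5 FPKM, deposited q = 0.013) rose, and an entry that merges pnt with CG4434 fell (36.6 against 22.9 FPKM, deposited q = 0.0309). The phagocytosis receptor genes nimC2 (132 against 117 FPKM, deposited q = 0.573) and crq (91 against 106 FPKM, deposited q = 0.582) were not called. Of 32 tested cell death and autophagy genes 1 rose, Atg8a, and 3 fell. The falls were Atg8b, the death inducer gene rpr (137 against 96.1 FPKM, deposited q = 0.0196) and the Bcl-2 family gene debcl (23 against 12.6 FPKM, deposited q = 0.00318). The shares, 3.13% higher and 9.38% lower, were both below those over all genes.

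The machinery of RNA export and its neighbours was mostly uncalled. Of 24 tested mRNA export genes none rose and 3 fell, with a median of 0.11. Among the falls were nxf4 (4.35 against 0.294 FPKM, deposited q = 0.00878) and an entry that merges xmas-1 with xmas-2 (14.2 against 8.56 FPKM, deposited q = 0.0189). Ntf-2r, a relative of the Ran importer Ntf-2, was at 8.02 against 0.766 FPKM, deposited q = 0.00149, whereas Ntf-2 itself was at 158 against 191 FPKM, deposited q = 0.395. The receptor gene sbr was at 30.1 against 41.3 FPKM, deposited q = 0.112, and the helicase gene Hel25E, which loads export adaptors, at 92.9 against 102 FPKM, deposited q = 0.767. Of 24 tested genes of the exon junction complex and of splicing 2 fell and none rose, with a median of 0.03. The falls were Srp54 (73.1 against 46 FPKM, deposited q = 0.000701) and tsu (263 against 184 FPKM, deposited q = 0.0296). All 19 tested nucleoporin and exportin genes were uncalled, with log2 ratios between -0.36 and 0.22, and so were all 23 tested neuronal genes, with a median of 0.05. Over all tested genes 12.9% were called lower, near the 12.5% of the mRNA export list and above the 8.33% of the exon junction and splicing list, which had 1 lower call at a q of at most 0.01.

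Few genes of energy metabolism and growth signalling were called. The 8 tested ATP synthase genes had no call and a median of 0.02, and of 16 tested respiratory chain genes 2 fell, CoIV (286 against 196 FPKM, deposited q = 0.0127) and the testis gene Cyt-c-d. Of 16 tested glycolytic genes 2 fell, Pglym87 and Hex-C (9.81 against 2.52 FPKM, deposited q = 0.0176). For glycolysis and the respiratory chain the share called lower, 12.5%, was near that over all genes. Of 22 tested genes of insulin, TOR and juvenile hormone signalling 1 fell, Rheb (88.1 against 61.9 FPKM, deposited q = 0.0441), a share of 4.55%, below that over all genes. The insulin-like peptide gene Ilp8, which was at 2.09 against 1.43 FPKM in stationary larvae, had reached 175 against 149 FPKM, deposited q = 0.439.

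Some of the largest single changes were outside any list. The non-coding CR40469, at chromosome X, 18880 to 19093 in coordinates whose build is not given in the sources used here, went from 314 to 15655 FPKM, a log2 fold change of 5.64 ± 0.32. Its share of the summed FPKM of tested genes was 0.0525% in w1118 and 2.60% in the trans-heterozygotes. CG13315 rose (46.1 against 839 FPKM), as did CG17352 (1.21 against 38.5 FPKM). The synaptotagmin gene Sytalpha rose from 1.63 to 33.5 FPKM (20.6-fold) and the receptor gene mthl6 from 0.264 to 10.3. CR40596 was at 0 against 29.2 FPKM, but its locus on Uextra overlaps other entries, and in stationary larvae it was at 29 against 0.095 FPKM. The largest falls among numbered genes were CG12464 (125 against 0.732 FPKM), CG12860 (113 against 0.967 FPKM) and CG31909 (112 against 2.24 FPKM).

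Of the 10 genes with the highest mean, 7 were not called, with the odorant-binding gene Obp99b at 10825 against 10311 FPKM, deposited q = 0.885, and CG34166 at 5894 against 4845 FPKM, deposited q = 0.279. CR40469 and Fbp2 rose, and CG6770 fell (6426 against 3922 FPKM, deposited q = 0.000739). The 10 highest genes held 10.8% of the summed FPKM in w1118 and 13% in the trans-heterozygotes.

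Single transcripts were called within genes that were not called as a whole, which does not show that those genes were unchanged. Of the tested isoforms 1115, or 9.18%, were called lower and 372, or 3.06%, higher. Of the tested start-site groups, which pool isoforms that begin at the same place, 1171, or 10.5%, were called lower and 341, or 3.07%, higher. In all, 9116 genes had a tested isoform and 9718 a tested start-site group. A called isoform was found in 274 of the 8958 genes that were tested and not called, with 141 isoforms higher and 162 lower. A called start-site group was found in 130 such genes. In 29 of the 1794 genes with several tested isoforms 1 isoform rose while another fell, and 23 of the 29 were not called.

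The gene for the cathepsin Cp1 was among those 29. In the authors' deposited isoform table an isoform was at 900.2 against 23.4 FPKM (deposited q = 4.69e-11) and another at 0 against 889 FPKM (deposited q = 2.96e-41). The gene as a whole, an entry merged with CG42806, was at 959 against 968 FPKM, deposited q = 0.979. FPKM of isoforms that share exons are estimates divided between them, and the depth behind each is unknown. The falling isoform held 93.9% of the entry in w1118 and 2.42% in the trans-heterozygotes, and the rising one 0% and 91.8%. In other genes the called isoforms did not replace each other in this way. For yellow-f the isoform at 85 against 27.4 FPKM (deposited q = 0.000328) fell and that at 0 against 10.7 FPKM (deposited q = 0.0471) rose, the latter to 8.79% of the gene, while an isoform that the authors did not test was at 32 against 83.2 FPKM. For the phosphatase subunit gene tws an isoform at 32.7 against 1.73 FPKM (deposited q = 4.37e-07) fell from 42.5% of the gene and the called riser, at 1.45 against 6.98 FPKM (deposited q = 0.0326), reached 9.68%. yellow-f and tws were uncalled as genes.

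In 14 of the 1034 genes with several tested start-site groups 1 group rose while another fell, and all 14 genes were uncalled as a whole. The Ras-family gene R had start-site groups at 84 against 31.7 FPKM (deposited q = 1.27e-07) and at 27.5 against 65.7 FPKM (deposited q = 5.66e-06), while the gene was at 112 against 97.4 FPKM, deposited q = 0.519. lost had start-site groups at 104 against 16.3 FPKM (deposited q = 9.33e-10) and at 80.2 against 154 FPKM (deposited q = 6.83e-06), with the gene at 185 against 170.4 FPKM, deposited q = 0.725. The glutamine synthetase gene Gs2 had the more abundant group at 368 against 230.2 FPKM (deposited q = 0.00098) and the other at 53 against 122 FPKM (deposited q = 0.00503). In R, lost and Gs2 the fall of 1 group was offset in part by the rise of the other. For CG4390 the start-site groups stood at 43.6 against 4.64 FPKM (deposited q = 2.76e-05) and 2.72 against 30.3 FPKM (deposited q = 0.00797).

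Other genes held a called transcript while the whole gene was uncalled. The tyrosine hydroxylase gene ple, whose product starts the synthesis of dopamine for cuticle tanning, had an isoform at 1049.5 against 42.6 FPKM (deposited q = 0.00878), with the gene at 4327 against 2974 FPKM, deposited q = 0.312. An isoform of the chaperone cofactor gene HIP-R was at 94.8 against 0.991 FPKM (deposited q = 0.00146) and an isoform of Sh3beta at 0 against 101 FPKM (deposited q = 1.13e-06). A start-site group of the microtubule-binding gene Jupiter was at 119.8 against 8.09 FPKM (deposited q = 3.91e-06), and one of CG42394 at 14.1 against 139 FPKM (deposited q = 0.000328).

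**Figure D4:**
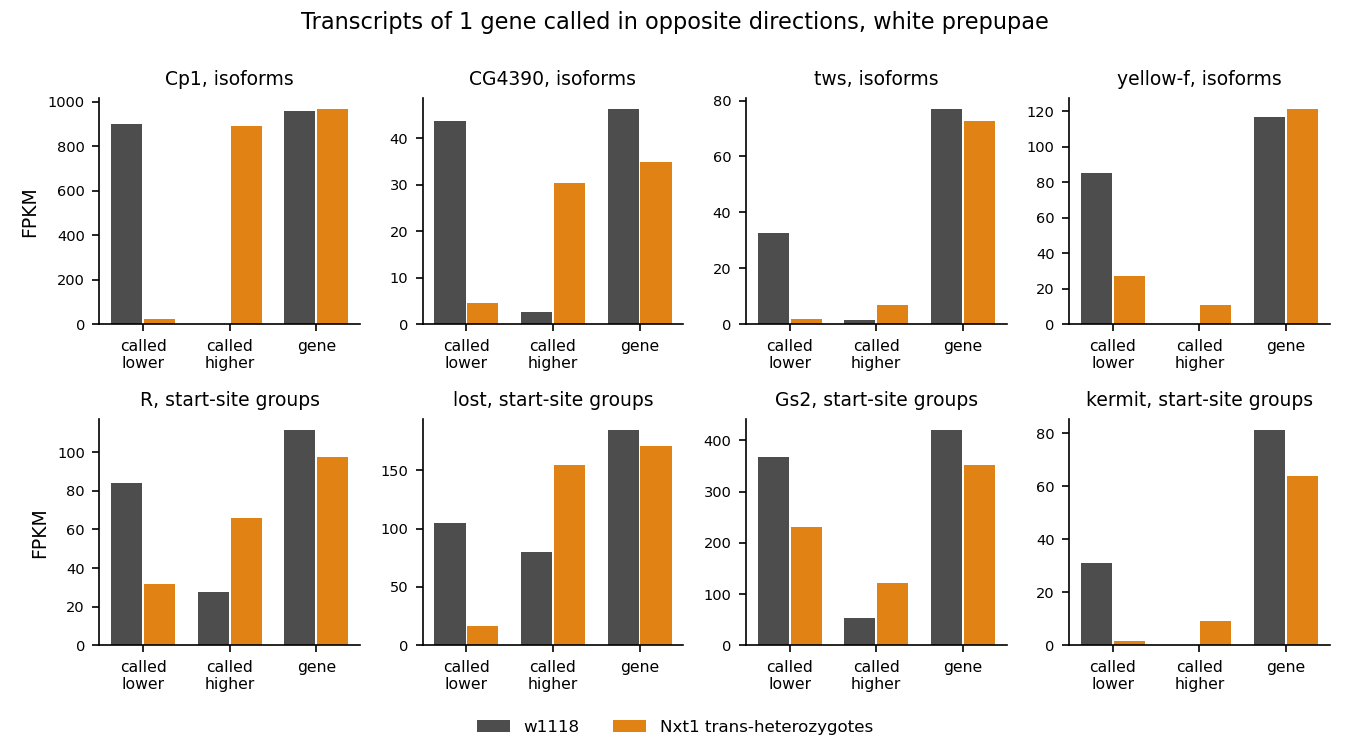
Bars give pooled FPKM in w1118 and in Nxt1 trans-heterozygotes for the transcript or start-site group called lower, the one called higher, and the whole gene, in 8 genes; there is no error to draw. For Cp1 the isoform bars exchange places, 900.2 to 23.4 and 0 to 889 FPKM, while the gene bars are level.

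The authors also tested the relative use of transcripts within a gene. Splicing within a start-site group was called in 129 of 1319 tested groups, or 9.78%, promoter usage in 113 of 1107 genes, or 10.2%, and coding-sequence usage in 83 of 1111, or 7.47%. Together 262 genes had at least 1 such call, and 210 of them, 80.2%, were not called as genes, near the 83.1% not called among all tested genes. The measure is a Jensen-Shannon distance between the relative shares, which is 0 for equal use. It was at the largest value seen, 0.833, for 11 splicing calls, among them the AMP kinase subunit gene SNF4Agamma (67.1 against 71.3 FPKM, deposited q = 0.873 for the gene) and the deadenylase gene twin (77.8 against 41.4 FPKM, deposited q = 2.25e-05 for the gene). The largest promoter shift was in mthl8, at 0.833, and the next in the phosphatase gene primo-1, at 0.646.

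Some members of the lists above had a usage call. Splicing and coding-sequence use of the ribosomal gene RpS21 were called (deposited q = 0.00106 and 0.000397) at a gene level of 207 against 221 FPKM, deposited q = 0.891. The titin-like gene sls had splicing and coding-sequence calls (deposited q = 0.0356 and 0.044), and the integrin entry of mew and CG15742 had all 3 kinds. Promoter use was called for the splicing regulator gene tra2 (deposited q = 0.0378), for the blood cell factor gene srp (deposited q = 0.0317) and for Pgk (deposited q = 0.000357), none of which was called as a gene.

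The lower calls were largely shared with the earlier stages and the higher calls were less so. The 3 stages have separate samples and controls. In stationary larvae 13.2% of tested genes were called lower and 4.7% higher, and in wandering larvae 9.49% and 2.29%. Of the prepupal lower calls 1120 were also lower in stationary larvae, which is 80.7% of the prepupal and 76.3% of the stationary list, and 858 in wandering larvae, 61.8% and 83.0%. Of the prepupal higher calls 212 were also higher in stationary larvae, 48.8% and 40.5%, and 76 in wandering larvae, 17.5% and 30.4%. Calls in neither earlier stage numbered 232 of the lower genes, 16.7%, and 203 of the higher genes, 46.8%. Not being called at a stage does not show that the effect differed there, which was tested directly.

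The genotype effect differed from that in stationary larvae in 89 of 10338 genes and from that in wandering larvae in 107 of 10096, by a two-sided normal test of the difference of log2 fold changes with Benjamini-Hochberg adjustment over those genes at a threshold of 0.05. Each difference of log2 fold changes below passed that test and is given with its standard error, prepupae minus the earlier stage. Against stationary larvae it was lower in prepupae for 0.551% of genes and higher for 0.31%. Against wandering larvae it was lower for 0.446% and higher for 0.614%. Hsp70 copies were among the genes with a smaller excess than in stationary larvae. Hsp70Bb had been at 11.2 against 99 FPKM there and was at 35 against 60.8 FPKM in prepupae (difference of log2 fold changes -2.35 ± 0.30), while in wandering larvae it had been at 10.2 against 3.2 (difference of log2 fold changes 2.47 ± 0.41). TotC had been at 3.91 against 129 FPKM in stationary larvae and was at 4.12 against 5.18 FPKM in prepupae (difference of log2 fold changes -4.72 ± 1.05).

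Some ratios were on opposite sides of 1 at the stages compared. The mucin gene Muc26B was at 681 against 420.1 FPKM in stationary larvae and at 28 against 60.6 FPKM in prepupae (difference of log2 fold changes 1.81 ± 0.28), and Muc68E at 216 against 138 and 139 against 257 FPKM (difference of log2 fold changes 1.54 ± 0.28). The P450 gene Cyp9b2 was at 63.8 against 132 FPKM in wandering larvae, w1118 first, and fell in prepupae (difference of log2 fold changes -2.29 ± 0.26). CG14664 was at 157 against 93.4 FPKM in stationary and 30.4 against 11.3 in wandering larvae, and rose in prepupae (86 against 219 FPKM). Its differences of log2 fold changes were 2.10 ± 0.31 from stationary and 2.77 ± 0.49 from wandering larvae. In wandering larvae Sgs5 was at 6428 against 5750.1 FPKM and IM3 at 36.2 against 6.63, and both genes rose in prepupae (differences of log2 fold changes 2.57 ± 0.35 and 3.996 ± 1.08). The dopa decarboxylase gene Ddc, which acts after ple in tanning, was at 183 against 63.6 FPKM in wandering larvae and at 60.3 against 89.2 FPKM in prepupae (difference of log2 fold changes 2.09 ± 0.29).

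**Figure D5:**
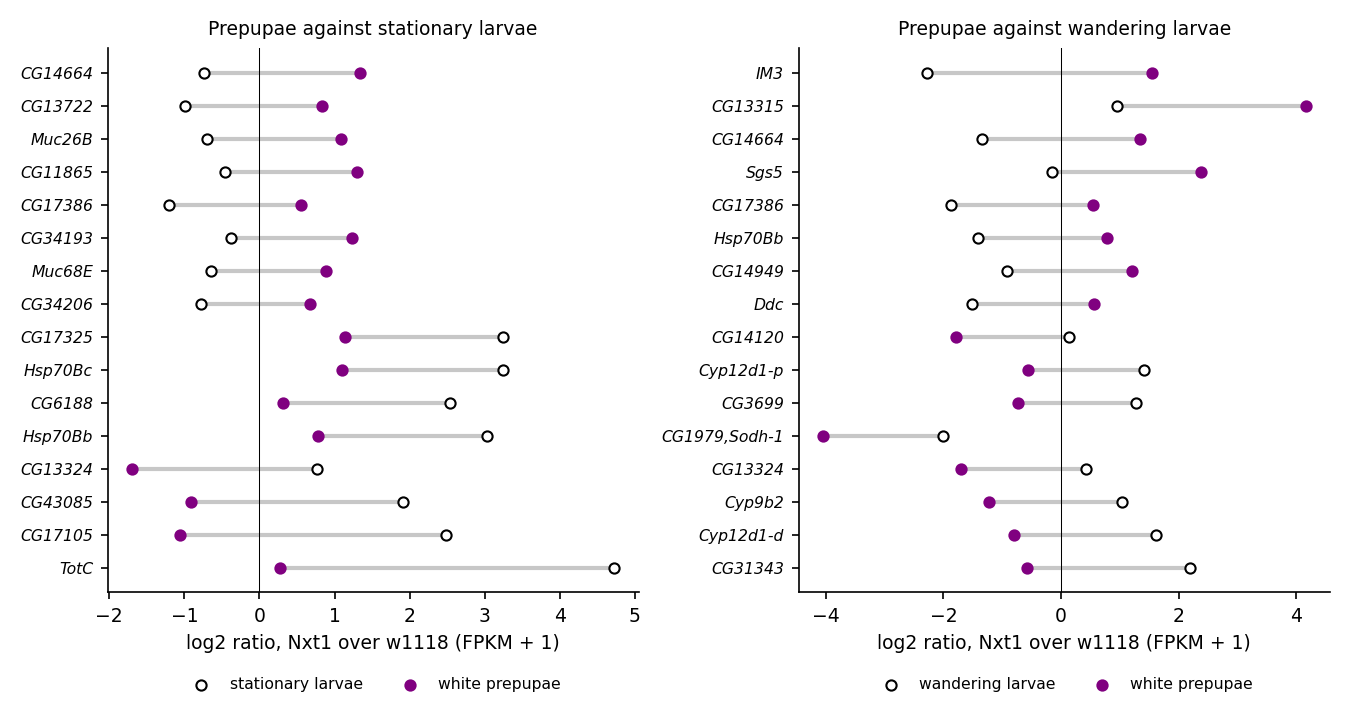
For 32 gene and stage pairs, open circles give the log2 ratio of (FPKM + 1) in the earlier larvae and filled circles that in white prepupae, each as trans-heterozygotes over w1118. Genes were chosen for their difference, 8 per direction and stage among those with an adjusted p of at most 0.05 and a larger FPKM of at least 5 at both stages, so the gaps are a description of the genes that passed the test.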

How the data were processed

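Whole-animal RNA was sequenced as 100 bp read pairs from ScriptSeq libraries, per the labels' protocols. Bowtie 1.1.1, Cufflinks and Cuffdiff were used, per the submitters' processing notes; the labels name neither their settings nor a genome build. The authors deposited Cuffdiff tables with 1 pooled FPKM per genotype and feature. The authors' test statistic is a score whose p-value and q-value they deposited beside it, and for transcript use the deposited score is a Jensen-Shannon distance (square root of the divergence). From these, log2 ratios with a pseudocount of 1 FPKM, standard errors (log2 fold change over statistic, with none for 233 genes), list counts and stage differences were computed. Python 3.11.15, pandas 2.3.3, numpy 2.4.6 and scipy 1.17.1 were used. The code of the stage test was run on data simulated with the same standard errors that the test uses. That run cannot show whether these errors match the spread between replicates. Of 18 files 8 were used. Entries merging several genes and overlapping loci were kept; the labels do not say whether counting used strand. p-values measure the spread between samples that may be technical.

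The members and gene lists were chosen with earlier results of these data known, and some list members that did not belong were removed or moved after values were seen. Genes were named by size of change: the 15 largest changes of each direction with a name and 5 with a number among calls with at least 5 FPKM, up to 5 called members per direction and 3 abundant uncalled members of each list, the 10 most abundant genes, and the largest transcript, usage (10 per table) and stage (8 per direction) differences. CecA1, CecB, CecC, Drs, Hsp68, Mst35Ba, Mst35Bb, Mst77F, Rpn5, Rpt4, S-Lap1, Sgs7, betaTub85D, alphaTub84D, fzo, ocn, t-cup and the list members named for a usage call fall outside that rule and were chosen after their values were seen.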

Additional observations from a re-analysis of the deposited data

Results flagged for a closer look

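The genes below stood out because their genotype effect in white prepupae differed from that at an earlier stage in a test of the difference itself, a two-sided normal test with Benjamini-Hochberg adjustment at 0.05 over all genes tested at both stages. Each value is the log2((FPKM + 1) ratio) in prepupae minus that in the earlier larvae, trans-heterozygotes over w1118. They were the largest among those that passed, up to 8 per direction and stage, so their size is a description.

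Against stationary larvae the effect was lower in prepupae by log2 differences of -4.46 for TotC, -3.54 for CG17105, -2.83 for CG43085, -2.47 for CG13324, -2.26 for Hsp70Bb, -2.22 for CG6188, -2.15 for Hsp70Bc and -2.11 for CG17325. Hsp70Bb and Hsp70Bc share reads and are not separate observations. The effect was higher in prepupae by 1.44 for CG34206, 1.53 for Muc68E, 1.6 for CG34193, 1.76 for CG17386, 1.76 for CG11865, 1.78 for Muc26B, 1.83 for CG13722 and 2.08 for CG14664. For TotC and CG17325 the stationary mutants held the high value, and Muc26B and Muc68E encode mucin-type secreted proteins.

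Against wandering larvae the effect was lower in prepupae by log2 differences of -2.77 for CG31343, -2.41 for Cyp12d1-d, -2.27 for Cyp9b2, -2.12 for CG13324, -2.04 for the merged entry of CG1979 and Sodh-1, -2.01 for CG3699, -1.97 for Cyp12d1-p and -1.93 for CG14120. Cyp12d1-d and Cyp12d1-p are near-identical neighbours. It was higher by 2.07 for Ddc, 2.13 for CG14949, 2.19 for Hsp70Bb, 2.42 for CG17386, 2.54 for Sgs5, 2.69 for CG14664, 3.2 for CG13315 and 3.83 for IM3. CG14664, CG17386 and CG13324 appear against both earlier stages, in the same direction each time, but both tests use the same prepupal samples.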

How the results depend on the processing

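Of the counts over all entries, those of higher calls, of usage calls and of stage differences were the ones that moved by more than 1.5 times. With a deposited q of at most 0.01 the higher calls were 269 genes, 206 isoforms and 195 start-site groups, and the usage calls were 80 for splicing, 64 for promoters and 50 for coding sequences. With a 2-fold minimum the higher calls were 170 genes, 228 isoforms and 156 start-site groups. At an adjusted p of at most 0.01, 57 genes differed from stationary and 65 from wandering larvae. When all ratios were shifted to a median of 0, 1296 genes were lower and 499 higher, and 1730 of the 1822 calls were kept. Of 172 called genes among 292 named, 6 lost their call under the shift and 0 reversed. List medians kept their sign in 41 of 41 lists with a pseudocount of 0.1 FPKM and in 39 of 41 under the shift, with meiotic arrest genes and cytochrome P450 the exceptions. Of 110 alternative counts over lists, 47 moved by more than 1.5 times. At a q of at most 0.01 the rises went from 7 to 3 for Toll peptides, from 4 to 2 for muscle, and from 3 to 1 for Turandot, small heat shock, blood cell and stress genes, and the falls from 4 to 2 for the 71E cluster and for digestive enzymes; the other lists that moved had 1 or 2 calls. Counting members with a called start-site group gave 0 for antibacterial peptides, Hsp70 and glue, none of whose called members has a start-site group that the authors tested. No paired analysis was possible because the authors pooled the 3 samples of each genotype into 1 value, which also left no way to leave out a replicate. Depth is unknown, so no counting interval can be given.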
